A study of Drosophila melanogaster with 7 samples.

Results

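Pericentromeric CLAMP regions are the merged CLAMP peaks that lie next to the centromeres of the X chromosome and of arms 2L, 3L and 3R. They were chosen by position and by recurrence. Peak intervals of the 5 CLAMP libraries were merged wherever they shared at least 1 bp, and a merged region was kept if it started at or above 22000000 on X, above 22000000 on 2L, above 23000000 on 3L or below 4200000 on 3R and was held by at least 2 of the 5 libraries. This gave 971 members out of 19039 merged regions on the main arms (4, X and both arms of chromosomes 2 and 3). Of the 8042 main-arm regions held by at least 2 libraries the members made up 12.1%, and the other 7071 are called the rest of the arms. The rule sets no window on 2R or on chromosome 4. The rest of the arms therefore includes the part of 2R next to the centromere and all of chromosome 4. Holding at least 2 of 5 libraries was part of the choice, so recurrence as such is not a finding here.

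Peaks came from CUT&RUN, where a nuclease tethered by an antibody cuts out bound chromatin for sequencing. The groups were 3 CLAMP libraries from S2 cells, a male embryonic *Drosophila melanogaster* line, 2 CLAMP libraries from Kc cells, a female embryonic line, and, per line, 1 control made with rabbit IgG. All cells were harvested at confluency and no treatment was applied, and each sex is represented by a single cell line. The series set male against female CLAMP binding. All coordinates are those of the dm6 build.

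Pericentromeric DNA is rich in transposons and satellite repeats and is largely packed as heterochromatin, which carries methylated lysine 9 of histone H3 and the protein HP1. The genes that do lie in it often have very long introns filled with transposon remnants, and some of them need heterochromatin for normal expression. The ribosomal RNA genes of the X chromosome also lie in its pericentromeric part. CLAMP recognises GA repeats through its zinc fingers and is best known for its part in dosage compensation of the male X and in regulation of the histone genes. Reads from repeats can match many places, and the sources used here do not give how such reads were handled.

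S2 replicate 3 stood apart from the other CLAMP libraries: its list held 5535 main-arm peaks, while the other 4 held 8769 to 9832. The IgG lists also differed in length, with 1165 peaks in S2 IgG and 8615 in Kc IgG, 7.39 times as many. The numbers of reads behind the lists are unknown, so depth cannot be told apart from binding in any comparison. Fold enrichments are the authors' values for single peaks. They come from separate lists of unknown depth, so the folds printed for named members do not give differences between libraries. For comparison folds are placed as percentiles within a list, where 100 is the strongest peak of that list.

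The pericentromeric windows held a sizeable part of every peak list, and a larger part of the IgG lists than of any CLAMP list. The pericentromeric share was 8.23%, 14.9% and 16.7% of the peaks in S2 CLAMP replicates 1 to 3 and 10.1% and 13.6% in Kc CLAMP replicates 1 and 2, against 20.9% for IgG from S2 and 20.7% for IgG from Kc. The windows span 12.4 Mb, 9.24% of the span of the main arms as the outermost peaks delimit it. The CLAMP lists had 59.3, 106 and 74.6 peaks per Mb there in S2, with 80.5 and 96.6 in Kc, against 67.3, 61.7 and 38.0 on the rest of the arms in S2, with 72.7 and 62.3 in Kc. S2 replicate 1 was the only CLAMP library with a lower density in the windows than outside them.

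**Figure D1:**
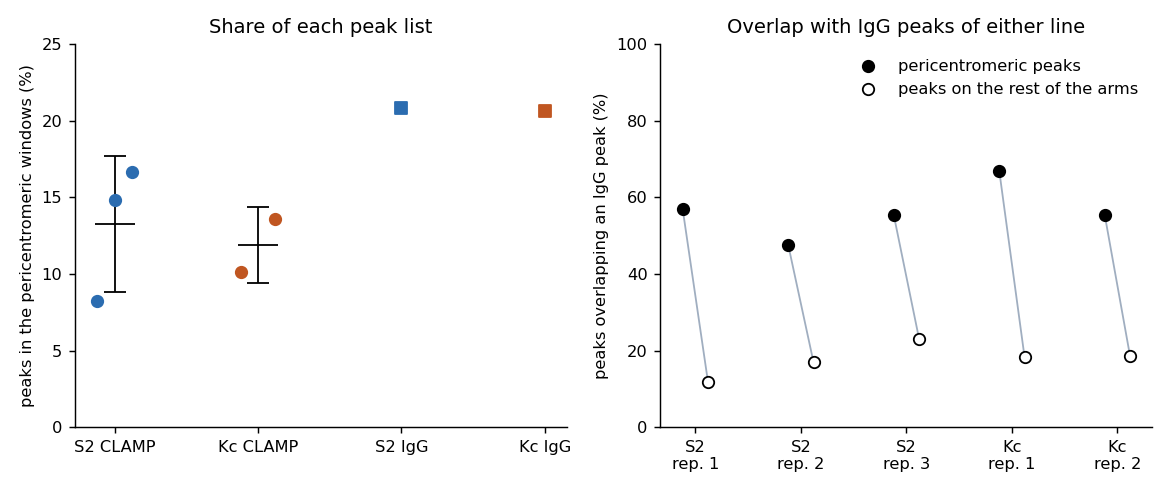
Left, the share of each main-arm peak list that lies in the pericentromeric windows, in percent, 1 point per library, with mean and SD as bars for the CLAMP groups (n = 3 and 2). Right, the percentage of peaks of each CLAMP library that overlap a peak of either IgG library, filled for pericentromeric peaks and open for the rest. The IgG lists (20.9% and 20.7%) lie above all 5 CLAMP lists, and in every CLAMP library the filled point lies above the open one.

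The difference between the male and female lines in pericentromeric share was smaller than the spread of their libraries. The share averaged 13.2% ± 4.44 over the S2 libraries (SD, n = 3) and 11.9% ± 2.47 over the Kc libraries (SD, n = 2), a difference of 1.38 points (exact two-sided permutation p = 0.7, adjusted p = 0.7 by the Benjamini-Hochberg method over 6 measures). With 3 and 2 libraries the smallest possible p is 0.1. The difference was -0.327 points without S2 replicate 3 and -0.369 points without Kc replicate 1. Of the 971 members, S2 replicates 1 to 3 held 524, 742 and 595, and Kc replicates 1 and 2 held 629 and 701. That is 63.9% ± 11.5 of the members per S2 library and 68.5% ± 5.24 per Kc library (SD over 3 and 2 libraries, exact two-sided permutation p = 0.6, adjusted p = 0.7).

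Members were spread unevenly over the 4 windows. X held 193 members, or 125 per Mb, 2L held 132 (87.2 per Mb), 3L held 309 (60.5 per Mb) and 3R held 337 (80.2 per Mb). Gene density in the windows was 59.8 genes per Mb on X, 39.6 on 2L, 13.1 on 3L and 5.71 on 3R, against 144 per Mb on the rest of the arms. The innermost DNA of 3R, between the start of the arm and its first annotated gene at 567076, held 132 members with no annotated gene. The median gap between neighbouring members was 2.86 kb, against 4.78 kb between neighbouring regions of the rest of the arms.

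**Figure D2:**
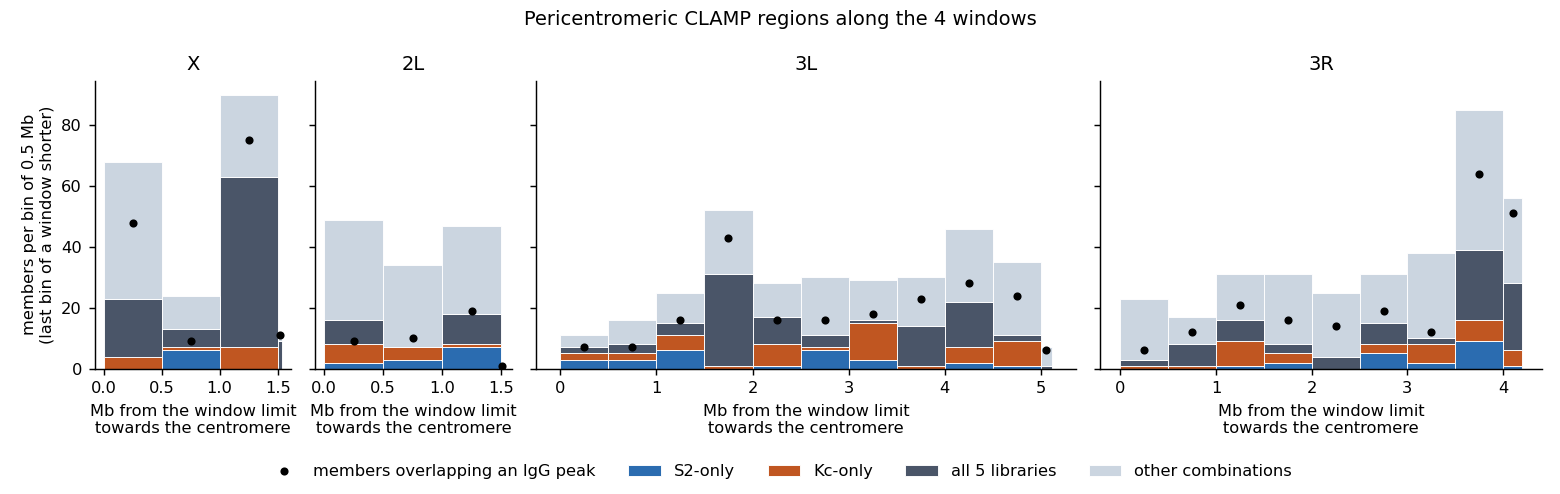
Members per 0.5 Mb bin, counted from the limit of each window (0) towards the centromere, for X, 2L, 3L and 3R. Colours give the libraries that hold a member, and black dots the number of members in the bin that overlap an IgG peak. On X the bin from 1.0 to 1.5 Mb held 90 members and on 3R the bin from 3.5 to 4.0 Mb held 85, while the outermost bin of 3L held 11.

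At 2 of the 4 window limits the first region inside and the last outside were held by equally many libraries. On X, the first region inside (22004519 to 22005397) and the last outside (21998449 to 21998919) were each held by 3 libraries. On 2L, the first inside (22016950 to 22017251) and the last outside (21991960 to 21992385) were each held by 2. On 3L, by contrast, the first inside (23073338 to 23075805) was held by 4 and the last outside (22992184 to 22996818) by 5. On 3R the first inside (4198580 to 4198966) was held by 2 and the last outside (4206259 to 4207893) by 5.

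Most members also appeared with control IgG. Of the 971 members 601 overlapped a peak of either IgG library (61.9%, 95% Wilson interval 58.8 to 64.9), against 1286 of the 7071 regions of the rest of the arms (18.2%, 17.3 to 19.1). Over all 8042 regions the share was 23.5%. S2 IgG peaks met 160 members (16.5%) and Kc IgG peaks 578 (59.5%), while over all regions the shares were 5.68% and 21.5%. The intervals cover counting error only. The same contrast was seen within each CLAMP library. Among pericentromeric peaks 56.9%, 47.6% and 55.4% overlapped an IgG peak in S2 replicates 1 to 3 and 66.9% and 55.4% in Kc replicates 1 and 2, against 11.8%, 17.0% and 23.1% on the rest of the arms in S2 and 18.3% and 18.6% in Kc. Pericentromeric peaks were higher in 5 of 5 libraries, by 38.7 points on average ± 7.89 (SD, n = 5), with an exact two-sided sign-flip permutation p = 0.062, the smallest 5 libraries allow, and an adjusted p = 0.125 over 4 measures. Between the lines, the pericentromeric share with IgG overlap was 53.3% ± 5.0 in S2 and 61.1% ± 8.18 in Kc (SD over 3 and 2 libraries, exact two-sided permutation p = 0.5, adjusted p = 0.7).

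The strongest members had IgG peaks at the same place. A member on 3L at 28110016 to 28110227, the last place on 3L with a peak in any list, had folds of 38.7, 45.8 and 42.8 in S2 CLAMP replicates 1 to 3 and 37.0 and 43.5 in Kc CLAMP replicates 1 and 2, with 23.5 in S2 IgG and 35.0 in Kc IgG. A member on X at 22432852 to 22433356, 10871 bp from CG14621, had folds of 35.7, 35.9 and 35.8 in S2 CLAMP and 36.0 and 35.7 in Kc CLAMP, with 34.6 in S2 IgG and 35.9 in Kc IgG. Both stood at or above percentile 99.9 in every CLAMP list and near 100 in the Kc IgG list, and at 67.2 and 89.6 in the short S2 IgG list.

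The next strongest members held by all 5 libraries showed the same pattern. On X at 22382880 to 22383848, folds were 41.3, 32.2 and 24.1 in S2 CLAMP and 26.8 and 25.9 in Kc CLAMP, with 13.3 in S2 IgG and 20.7 in Kc IgG. Inside Pzl, a long gene for a Piezo-like channel protein, the member on 3R at 3169670 to 3170504 had folds of 24.1, 23.9 and 24.6 in S2 CLAMP and 22.5 and 24.0 in Kc CLAMP, with 18.8 and 22.9 in S2 and Kc IgG. It is the strongest member of 3R. The strongest of 2L, at 23512678 to 23513710, had folds of 16.4, 17.7 and 16.0 in S2 CLAMP and 14.8 and 15.3 in Kc CLAMP, with 16.0 and 12.9 in S2 and Kc IgG. The sixth, on X at 23466890 to 23467265, had 12.3, 33.7 and 21.5 in S2 CLAMP and 7.86 and 11.8 in Kc CLAMP, against 3.83 and 5.55 in S2 and Kc IgG. The 5 CLAMP libraries hold these 6 members by the definition of the class, and both IgG libraries also had a peak at each.

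**Figure D3:**
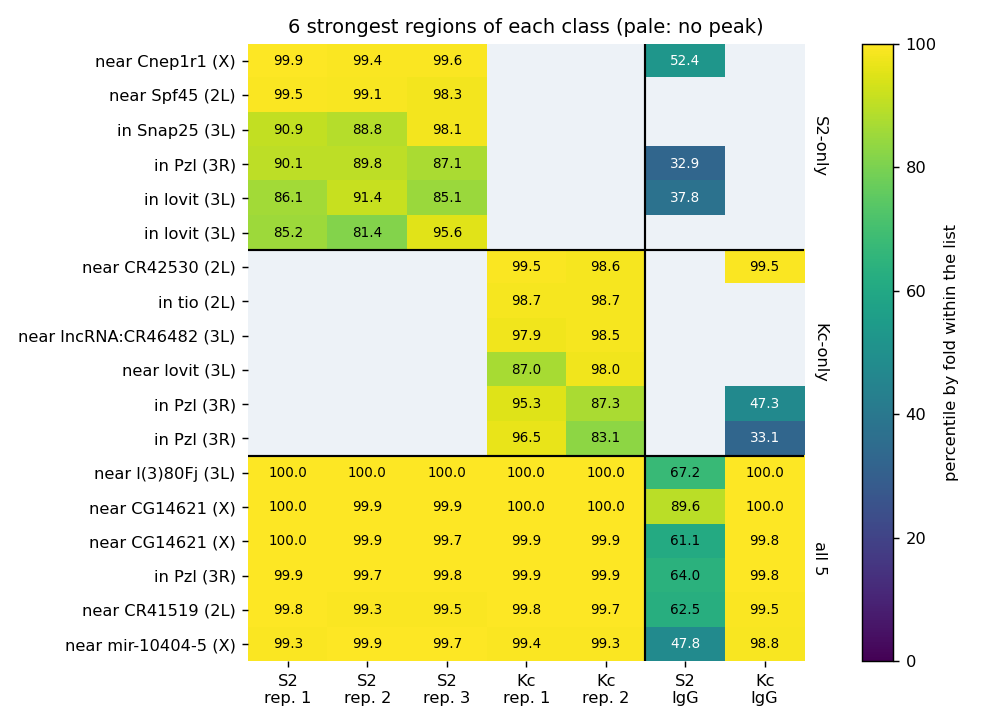
Percentile of the highest fold within each list (colour and printed value, 0 to 100) for the 6 strongest members of each class, named by the nearest gene and arm, in the 5 CLAMP and 2 IgG libraries. Pale cells mark lists with no peak. All 6 members held by every CLAMP library also have a peak in both IgG lists, whereas tio, a Kc-only member, and the member near Spf45, an S2-only member, have none.

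Where all 5 CLAMP libraries and both IgG libraries had a peak, the ranking by strength was much the same in all of them. For these 126 members, Spearman's rho of the fold percentiles ran from 0.895 to 0.933 between CLAMP libraries of one line, from 0.787 to 0.904 between S2 and Kc CLAMP libraries and from 0.777 to 0.932 between a CLAMP and an IgG library. These are correlations across regions, which share library and depth, and regions are not independent replicates. The strongest summits of the 5 CLAMP libraries lay within 50 bp of each other at 49 of the 126 (38.9%), and their median range was 109.5 bp, against 240 bp for the 27 members held by all 5 libraries without IgG overlap. In the 133 such regions of the rest of the arms with both IgG peaks, 19.5% had summits within 50 bp, against 8.51% of the 529 without IgG overlap. Their median range was the larger one, however, at 431 bp against 310 bp. In those 133 regions rho between a CLAMP and an IgG library ran from 0.560 to 0.833.

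Members without IgG overlap ranked lower by fold than regions without it elsewhere, in each of the 5 libraries. Their median percentile by fold was 41.5, 35.2 and 46.0 in S2 replicates 1 to 3, with 47.6 and 36.5 in Kc replicates 1 and 2, against 65.6, 67.7 and 62.2 in S2, with 64.3 and 70.4 in Kc for regions without IgG overlap on the rest of the arms. Members with IgG overlap had medians of 47.2, 51.0 and 66.0 in S2, with 75.5 and 45.2 in Kc. In all 5 libraries the median of members with IgG overlap was thus above that of members without it. On the rest of the arms the order was the other way round in 4 libraries, the exception being Kc replicate 1. Among the members in the top 1% of a list by fold, 14, 10 and 19 overlapped IgG in S2 replicates 1 to 3 and 41 and 15 in Kc replicates 1 and 2, whereas 2, 1 and 0 had no IgG overlap in S2 and 0 and 0 in Kc. On the rest of the arms the regions in the top 1% with IgG overlap numbered 15, 25 and 33 in S2 and 52 and 37 in Kc, and those without it 58, 51 and 3 in S2 and 3 and 36 in Kc. In S2 replicate 3 and Kc replicate 1 nearly all regions in the top 1% overlapped IgG, in the windows and outside them.

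**Figure D4:**
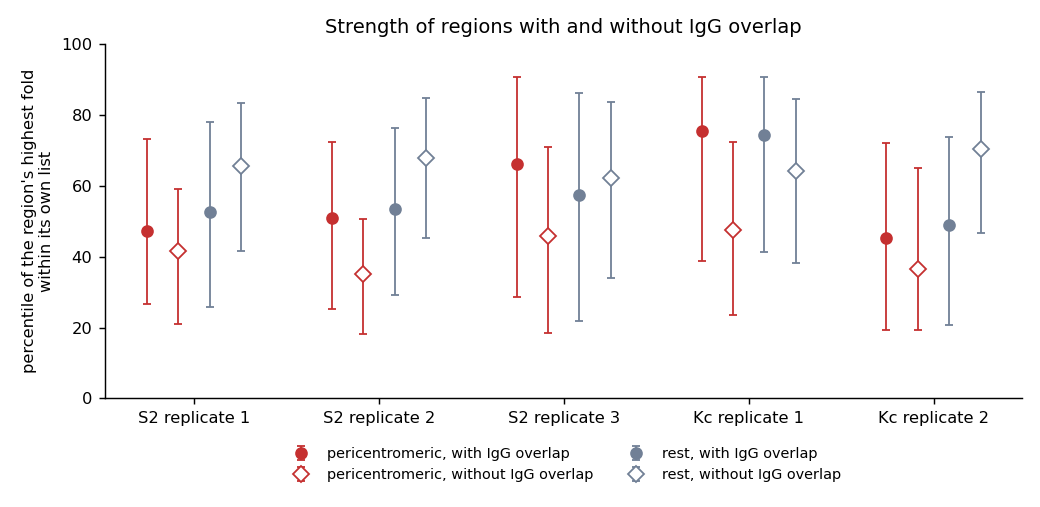
Percentile of the highest fold within each CLAMP list (0 to 100) for pericentromeric members (red) and regions of the rest of the arms (grey), with IgG overlap (filled circles) and without (open diamonds). Markers are medians over the regions the library holds and bars run from the first to the third quartile. The open red diamonds, between 35.2 and 47.6, are the lowest of the 4 medians in every library.

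IgG overlap varied with the place of a member relative to genes, as a description without a test. Only 41 members (4.22%) came within 500 bp of either end of a protein-coding gene, against 2705 regions (38.3%) on the rest of the arms. Of these 41, 2 overlapped an IgG peak (4.88%, 95% Wilson interval 1.35 to 16.1), close to the 5.69% of such regions on the rest of the arms. Another 303 members lay elsewhere in or at genes, with IgG overlap in 156 (51.5%, 45.9 to 57.1), and 627 lay away from genes, with IgG overlap in 443 (70.7%, 67.0 to 74.1). On the rest of the arms the shares at these places were 18.6% and 47.5%. At protein-coding gene ends S2 replicates 1 to 3 held 82.9%, 53.7% and 24.4% of the members and Kc replicates 1 and 2 held 46.3% and 75.6%, against 89.5%, 70.0% and 20.3% of such regions on the rest of the arms for S2 and 60.2% and 72.8% for Kc. Away from genes S2 replicates 1 to 3 held 53.3%, 81.7% and 67.0% of the members and Kc replicates 1 and 2 held 69.5% and 74.6%. For such regions on the rest of the arms the shares were 66.1%, 77.5% and 48.7% in S2 and 61.5% and 63.0% in Kc.

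Counted as overlap with no annotated gene, 631 members (65.0%, 95% Wilson interval 61.9 to 67.9) were intergenic, against 19.1% of the regions on the rest of the arms and 24.7% of all regions. Of the members, 534 lay over 10 kb from a gene and the farthest lay 565 kb away. Among single peaks, those with a summit outside genes and over 500 bp from any gene end made up 63.3%, 67.3% and 66.3% of the pericentromeric peaks in S2 and 62.9% and 57.8% in Kc, against 13.6%, 20.7% and 26.3% on the rest of the arms in S2 and 16.0% and 16.6% in Kc. The excess was 44.8 points ± 4.12 (SD, n = 5 libraries, exact two-sided sign-flip permutation p = 0.062, adjusted p = 0.125). It was not particular to CLAMP, as IgG peaks had 65.8% against 29.5% in S2 and 54.7% against 25.0% in Kc. The windows also hold fewer genes, 19.7 per Mb against 144 on the rest of the arms. Between the lines the intergenic share of pericentromeric CLAMP peaks was 65.6% ± 2.06 in S2 and 60.4% ± 3.62 in Kc (SD over 3 and 2 libraries, exact two-sided permutation p = 0.2, adjusted p = 0.7).

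Peak width showed no single direction between the windows and the rest of the arms. The median pericentromeric peak was 400, 330 and 318 bp wide in S2 and 313 and 305 bp in Kc, against 426, 406 and 236 bp on the rest of the arms in S2 and 289 and 322 bp in Kc. It was larger in 2 of the 5 libraries (exact two-sided sign-flip permutation p = 0.938, adjusted p = 0.938). Between the lines the median width was 349 ± 44.3 bp in S2 and 309 ± 5.66 bp in Kc (SD over 3 and 2 libraries, exact two-sided permutation p = 0.3, adjusted p = 0.7). The median percentile by fold of pericentromeric peaks was 37.9, 31.8 and 50.3 in S2, with 54.5 and 32.8 in Kc, and the line difference of -3.62 was smaller than the library-to-library spread (exact two-sided permutation p = 0.7, adjusted p = 0.7).

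Among the 243 annotated genes that start in the windows, 97 (39.9%) held a member, counting members in the gene or within 500 bp of it. Of all 17684 main-arm genes 29% held a region that at least 2 libraries shared. By kind, 58 of 146 protein-coding genes and 39 of 97 other genes held one. Among the other genes, the 14 rRNA pseudogenes and 2 rRNA genes all held one, against 15 of 45 lncRNA genes and 2 of 22 pseudogenes of other kinds. Of the 340 members that overlap a gene, most lay in a few very long genes. Myo81F, a myosin gene that spans 1966 kb of 3R, held 127 members, Pzl (709 kb) held 37, lovit, a transporter gene needed for vision (434 kb of 3L), held 23, and Snap25, a SNARE gene of synaptic vesicle fusion (225 kb of 3L), held 15. These 4 genes together overlapped 202 members, 20.8% of all. Per 100 kb they held 6.46, 5.22, 5.30 and 6.67 members, while the other protein-coding genes over 100 kb ran from 2.22 in AGO3 to 7.47 in CG40006.

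Long and short genes held members with unlike shares of IgG overlap, given without a test. The 10 protein-coding genes over 100 kb all held members, 240 in number, of which 129 overlapped an IgG peak (53.8%, 47.4 to 59.9). Of the 136 shorter protein-coding genes 48 held members, 77 in number, of which 12 overlapped an IgG peak (15.6%, 9.15 to 25.3). The limit of 100 kb was set after the values were seen.

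A list of 23 genes, drawn up as genes of pericentromeric DNA with earlier results of these data known, was taken as a guide. Of the 23 genes 21 start in the windows. Outside them lay Haspin, on 2R, which has no window, and Arl5, at 3L 8298501, far from the limit on that arm. Of these 21 genes 19 held a member, against 97 of all 243 window genes (39.9%), and the list includes the longest genes of the windows. The exceptions were Set1, a histone H3 lysine 4 methyltransferase gene, and spok, a gene of ecdysone synthesis. The 12 listed genes of up to 100 kb that held members did so with 15 members in all, none of which overlapped an IgG peak (95% Wilson upper limit 20.4%). Light (lt), a vesicle trafficking gene, held 1 member at its lower end (2L 22924789 to 22925266), called in S2 replicate 1 with fold 2.79 and in Kc replicate 2 with fold 2.28. At cta, a G protein gene of gastrulation, a member (2L 22981503 to 22982696) had folds of 3.70, 1.92 and 2.32 in S2 and 2.31 in Kc replicate 2. The gene fog, whose secreted product acts upstream of cta, held 2 members, the stronger of which (X 22854499 to 22855722) had folds of 4.83 and 2.72 in S2 replicates 1 and 2, with 4.19 in Kc replicate 2. Of these members only that at cta was called in all libraries of a line, S2.

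Ribosomal protein and cohesin genes of the list held members that some of the libraries lacked. RpL15 held a member (3L 27267276 to 27268017) that reached a fold of 2.15 and 2.28 in S2 replicates 1 and 2 and 2.35 in Kc replicate 1, and RpL5 held one (2L 22536815 to 22537612) with 1.87 in S2 replicate 1 and 2.28 in Kc replicate 1. At vtd, the Rad21 cohesin subunit gene, a member at the lower end (3L 27136175 to 27137291) had 2.74 in S2 replicate 1 and 2.35 in Kc replicate 2, and a Kc-only member inside the gene (3L 27151301 to 27151775) had 2.19 and 1.95 in Kc replicates 1 and 2. At su(f), a gene of mRNA 3′ end formation, the member (X 23099998 to 23100792) was called by S2 replicates 1 and 2 alone, with folds of 2.93 and 6.08. The overlapping genes stnA and stnB, which act in synaptic vesicle recycling, shared 2 members, of which 1 was S2-only (X 22988268 to 22989672), at folds of 2.51, 2.44 and 2.47 in S2 replicates 1 to 3. The gene for CLAMP itself (Clamp) held a member (2L 22168375 to 22169899) that reached folds of 6.69 and 4.05 in S2 replicates 1 and 2, with 2.79 and 4.36 in Kc, and no peak of S2 replicate 3 within the member. Within their lists these folds stood at percentiles 92.6 and 79.1 in S2 and 86.3 and 88.8 in Kc. The member also overlaps lncRNA:CR44809.

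The longer listed genes held members of mixed kind. AGO3, an Argonaute gene of the piRNA pathway, held 3 members, 1 of which (3L 23571679 to 23572877) was held by all 5 CLAMP libraries, at folds of 2.46, 5.39 and 4.56 in the S2 libraries, with 6.94 and 7.68 in Kc. That member overlapped a Kc IgG peak with fold 8.13, at percentile 99.2 of its list. Parp1, a poly(ADP-ribose) polymerase gene listed as Parp, held 6 members, 5 of them with IgG overlap and 3 in all 5 libraries. Dbp80, an RNA helicase gene, held 6 members, 2 of them Kc-only and 3 with IgG overlap.

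The stretch of X that carries the ribosomal RNA sequences held a large part of the X members. From the first annotated rRNA gene or pseudogene at 23200802 inwards lay 92 members. Of these, 61 (66.3%) were held by all 5 CLAMP libraries, against 15.5% of all regions. An IgG peak overlapped 79 (85.9%, 77.3 to 91.6), against 23.5% of all regions. In the rest of the X window 64 of 101 members overlapped IgG (63.4%, 53.6 to 72.1) and 29 (28.7%) were held by all 5. No member of the rRNA stretch was S2-only, against 4.58% of all regions, which is few in 92, and 7 were Kc-only (7.61%, near the 9.54% of all regions). Their median mean percentile was 46.2, with a range of 0.122 to 99.5. Within 500 bp of an annotated rRNA gene or pseudogene lay 17 members, of which 11 were held by all 5 libraries and 12 overlapped both IgG lists. The stretch was chosen after the values were seen.

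The innermost DNA of 3R was similar in its IgG overlap. Of the 132 members before the first gene, 109 overlapped an IgG peak (82.6%, 75.2 to 88.1) and 43 (32.6%) were held by all 5 CLAMP libraries. Their median mean percentile was lower, at 32.5. The 2L window was at the other end, with IgG overlap in 39 of 132 members (29.5%) and 19 members held by all 5 (14.4%). On 3L 204 of 309 members (66.0%) and on 3R 215 of 337 (63.8%) overlapped IgG.

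Members fell into classes by the libraries that held them. Of the 971, 63 (6.49%) were S2-only, called in every S2 library and neither Kc library, 101 (10.4%) were Kc-only, called in both Kc libraries and not in S2, and 270 (27.8%) were held by all 5. Over all 8042 regions these shares were 4.58%, 9.54% and 15.5%. The share in all 5 libraries was 27.8% of members (25.1 to 30.7) against 13.9% of regions on the rest of the arms (13.1 to 14.7), but it rested on S2 replicate 3: with that library left out, 301 of 873 members (34.5%, 31.4 to 37.7) and 2516 of 6815 regions of the rest (36.9%, 35.8 to 38.1) were held by all 4 libraries left. The S2-only share was 6.49% of members (5.10 to 8.22) against 4.31% of the rest (3.86 to 4.81), and without S2 replicate 3 the order turned, with 11.9% of members (9.93 to 14.2) against 19.0% of the rest (18.0 to 19.9). The Kc-only share was 10.4% of members (8.63 to 12.5) against 9.42% of the rest (8.76 to 10.1). Its order also turned with a single library, with 11.8% of members against 17.4% of the rest without S2 replicate 1. It kept its direction without S2 replicate 2 (19.9% against 13.4%) and without S2 replicate 3 (13.1% against 10.4%). The commonest combination on the rest of the arms, all libraries but S2 replicate 3, applied to 1515 regions there (21.4%) and to only 27 members (2.78%).

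S2 replicate 3 fitted the other CLAMP libraries, of both lines, better within the windows than outside. The Jaccard index, the members held by both libraries divided by those held by either, was 0.558 and 0.597 between S2 replicate 3 and S2 replicates 1 and 2, against 0.266 and 0.304 on the rest of the arms. Between S2 replicate 3 and Kc replicates 1 and 2 it was 0.442 and 0.473, against 0.243 and 0.237 on the rest of the arms. Between S2 replicates 1 and 2 it was 0.579, against 0.744 on the rest of the arms, and between the Kc replicates 0.642 against 0.660. Between lines the index of members ran from 0.436 to 0.552. All 4 within-line values of the members lay above all 6 between-line values, which was not so on the rest of the arms, where within-line values ran from 0.266 to 0.744 and between-line values from 0.237 to 0.567. Members had to be held by at least 2 libraries in both sets, so the indices are not those of whole lists. They are given as a description without a test.

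Counts of line-specific members moved with single libraries. There were 120 S2-only members when S2 replicate 1 was left out and 104 when S2 replicate 3 was, as only 2 S2 lists had to agree. These were 13.0% and 11.9% of the members, against 8.06% and 19.0% of regions on the rest of the arms. Kc-only members numbered 159 without S2 replicate 2 (19.9%, against 13.4% of regions on the rest of the arms). Without S2 replicate 3, whose list stood apart, the pericentromeric excess was 40.3 points for IgG overlap and 46.1 points for intergenic summits.

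Line-specific members overlapped IgG peaks of their own line more often than those of the other line. Of the 63 S2-only members 17 overlapped an S2 IgG peak (27.0%, 17.6 to 39.0) and 8 a Kc IgG peak (12.7%, 6.58 to 23.1), although the Kc IgG list was the longer one. Of the 101 Kc-only members 78 overlapped a Kc IgG peak (77.2%, 68.1 to 84.3), while 1 overlapped a peak of S2 IgG (0.990%, 0.175 to 5.40). On the rest of the arms 53 of 305 S2-only regions (17.4%) overlapped an S2 IgG peak and 26 (8.52%) a Kc IgG peak, and 262 of 666 Kc-only regions (39.3%) overlapped a Kc IgG peak, while 5 (0.751%) overlapped one of S2 IgG. Overlap with IgG was not particular to line-specific members. Those held by all 5 libraries overlapped S2 IgG in 46.7% and Kc IgG in 90.0%, and over all members the shares were 16.5% and 59.5%. What part the IgG signal has in the line-specific members was not tested. Without IgG overlap remained 39 of 63 S2-only members, 23 of 101 Kc-only members and 27 of 270 members held by all 5. On the rest of the arms 233 of 305, 401 of 666 and 529 of 980 regions of these classes remained.

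**Figure D5:**
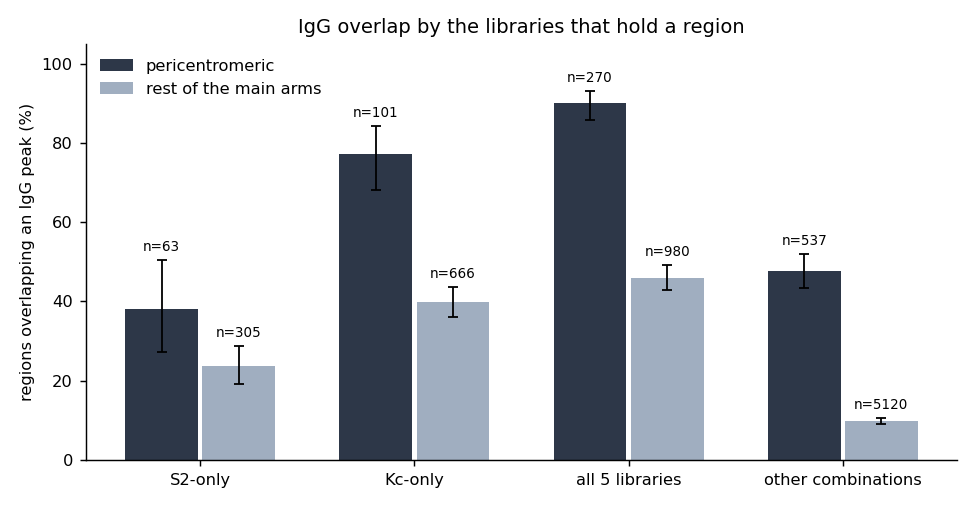
Percentage of regions that overlap a peak of either IgG library, by the CLAMP libraries that hold the region, for pericentromeric members (dark) and the rest of the main arms (light). Bars start at 0, error bars are 95% Wilson intervals and n counts regions. The dark bar is the higher one in each class, with 90.0% for the 270 members held by all 5 libraries.

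The strongest S2-only member lay on X at 22947528 to 22947988, 1189 bp from Cnep1r1, a gene for a regulatory subunit of a nuclear envelope phosphatase. Its folds were 24.6, 18.4 and 17.5 in S2 CLAMP replicates 1 to 3, and S2 IgG had a peak there with fold 4.98, at percentile 52.4 of its list. The second lay on 2L at 23065787 to 23066144, 730 bp from the splicing factor gene Spf45, with folds of 13.6, 16.5 and 6.48 in S2 CLAMP and without an IgG peak. A separate weaker member at Spf45 itself (2L 23067997 to 23068697) was held by both lines, at 2.64 and 2.15 in S2 replicates 1 and 2, with 2.72 in Kc replicate 2. The third S2-only member lay inside Snap25 (3L 24197030 to 24197584), where the S2 folds were 6.15, 5.92 and 6.31 and IgG had no peak.

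Long genes held the other leading S2-only members. In Pzl (3R 2952289 to 2954729) folds were 5.88, 6.26 and 2.72 in S2 CLAMP and 2.63 in S2 IgG. In lovit, a member at 3L 25567824 to 25571124 had 5.06, 6.82 and 2.66 in S2 CLAMP and 2.83 in S2 IgG, and a member at 3L 25299576 to 25300355 had 4.88, 4.35 and 3.82 in S2 CLAMP and no IgG peak. By the definition of the class, Kc CLAMP libraries had no peak at any of the 6.

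The strongest Kc-only member, on 2L at 23332083 to 23332849, 7891 bp from CR42530, had folds of 10.1 and 9.69 in Kc CLAMP replicates 1 and 2 and 11.6 in Kc IgG, at percentile 99.5 of the IgG list. The gene tio, which codes for a zinc-finger protein, held 2 Kc-only members without IgG overlap. One lay inside the gene (2L 22024235 to 22024895, folds 5.19 and 9.86 in Kc replicates 1 and 2), and the other at its lower end, where lncRNA:CR33987 overlaps (2L 22018877 to 22019395, folds 2.56 and 4.68 in Kc replicates 1 and 2). On 3L at 27911492 to 27912142, 30080 bp from lncRNA:CR46482, the folds were 4.49 and 9.50 in Kc replicates 1 and 2, again with no IgG peak. A member 6568 bp from lovit (3L 25229903 to 25230372) had folds of 2.83 and 8.60 in Kc and no IgG peak.

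Pzl also held leading Kc-only members, at 3R 3129067 to 3130301 with folds of 3.66 and 4.14 in Kc CLAMP and 1.93 in Kc IgG, and at 3R 3135629 to 3136487 with 3.94 and 3.59 in Kc CLAMP and 1.82 in Kc IgG. In all, the gene held 3 S2-only members, 8 Kc-only members and 7 members in all 5 libraries. Myo81F held 7, 14 and 18 of these classes, lovit 4, 5 and 4, and Snap25 3, 4 and 1. In Myo81F these are 5.51%, 11% and 14.2% of its 127 members, near the 4.58%, 9.54% and 15.5% of all regions, and the other 3 genes hold too few members for such a reading.

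Members held by all 5 CLAMP libraries without IgG overlap, listed after their values were seen, were led by 5 regions. On 2L at 23252373 to 23254604, folds were 11.3, 11.2 and 3.63 in the S2 libraries, with 2.78 and 4.83 in Kc, and further in, at 23268511 to 23270307, they were 11.8, 11.3 and 3.50 in S2, with 2.40 and 5.13 in Kc. On X, a region at 22221110 to 22222880 near CG46517 had 10.6, 9.89 and 3.44 in S2, with 2.51 and 4.74 in Kc. The other two, near CG17601 (X 22552363 to 22553720) and at lncRNA:CR44997 (X 22699343 to 22701206), completed the set. The region near CG17601 had folds of 9.37, 9.42 and 3.61 in S2 replicates and 2.88 and 3.45 in Kc replicates. That at lncRNA:CR44997 had 9.35, 10.3 and 2.68 in S2 replicates and 2.30 and 4.73 in Kc replicates. These 5 regions were 1358 to 2232 bp wide. At the first of them the folds stood at percentiles 98.8, 97.2 and 95.1 in S2 replicates and 85.9 and 91.1 in Kc replicates.

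The gene Usp2, a ubiquitin protease gene of the X window, held the strongest member without IgG overlap among the other combinations. It lay inside the gene (X 22461160 to 22461988) and was held by S2 replicates 1 and 2 alone, with folds of 7.14 and 10.4.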

How the data were processed

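The files are MACS2 peak lists in narrowPeak layout, 1 per library, and were thus called without pooling. Bowtie2, MACS2, FastQC, Trimmomatic and the build dm6 are named, per the submitters' processing notes, with versions, parameters and the role of IgG not given in the sources used here. Each deposited fold (a ratio of summit signal to estimated background), −log10 p-value, −log10 q-value and score (not used) is the authors' value for a summit. Rows sharing an interval were joined, keeping the strongest summit. Fold percentiles were taken over each list's main-arm peaks. The title and file name of S2 replicate 3 carry different internal numbers, and its title was followed.

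Genes are those of RefSeq Release 6 plus ISO1 MT, in a table used here without a strand column. All 23 listed genes matched 1 entry. A genome sequence was not used here, so GA motif content was not computed. Peaks on Y and the mitochondrial genome were left out.

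Lines were compared by exact permutation over the 10 splits of libraries, and pericentromeric with other peaks by exact sign flips over the 5 CLAMP libraries. Nothing in the labels says that replicates were separate cultures, so p-values cover only library-to-library spread, possibly technical. At most 0.172% of the intervals of any list were identical in another. Members, lists and named regions were chosen with earlier results of these data known. Named were the 6 strongest members of each class by mean fold percentile, the strongest of each window, members at listed genes, regions at the limits, the 3 genes with most members (Snap25, the fourth, is a listed gene) and the 4 strongest members with IgG overlap. Alternatives were a q-value of at most 0.0001, an overlap of 50% of the shorter interval, equally long lists, windows of 100 bp to either side of summits, limits moved by 0.5 Mb, IgG overlap set aside, 3 libraries as the minimum, replicate numbers as a block and each library left out, for which the class shares of the rest of the arms were added after seeing the data. Scripts ran in Python 3.11.15 with numpy 2.4.6, scipy 1.17.1 and statsmodels 0.14.6, and were tested on simulated lists.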

Additional observations from a re-analysis of the deposited data

How the results depend on the processing

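The excess of IgG overlap and of intergenic summits among pericentromeric peaks kept its direction under every alternative tried for it, from 29.4 points with windows around summits to 48.4 points with equally long lists for IgG, and from 40.4 to 48.3 points for intergenic summits. No test between the lines could pass 0.05 at any setting. The number of members was 609 at a q-value of at most 0.0001, 625 with equally long lists, 370 with IgG overlap set aside and 599 with 3 libraries as the minimum, each being a stricter rule, and 786 to 925 with 1 library left out. Kc-only members numbered 47, 49 and 23 under the first 3 of these and 109 to 159 with 1 S2 library left out, and with 1 Kc library left the minimum of 2 libraries cannot be met. S2-only members numbered 39 with IgG overlap set aside and 80 to 120 with 1 library left out, and members in all 5 numbered 27 and 278 to 310.

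Among the tested measures, directions that turned belonged to small differences. Class shares against the rest of the arms also turned. The share in all 5 libraries went from 27.8% against 13.9% to 34.5% against 36.9% without S2 replicate 3. The line difference in pericentromeric share ran from -0.369 to 3.89 points with 1 library left out, that in members held from -12.0 to 7.17 points and that in median fold percentile from -14.5 to 7.24. The intergenic difference between lines was -0.878 points with equally long lists. The difference in median width, -2.6 bp, was 17.6 bp at the stricter q-value, 13.5 bp with equally long lists, 4.5 bp with limits nearer the centromere and -23.8 to 15.8 bp with 1 library left out. The share of peaks met by another CLAMP library was 4.61 points higher in the windows, and -1.69 to 9.09 with 1 library left out. Replicate numbers 1 and 2 occur in both lines and nothing says that they pair the libraries. Taken as a replicate block, the difference in pericentromeric share was -0.327 points. Widths were not computed for windows around summits, where they are fixed. Read numbers are unknown, which limits every comparison of absent peaks.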
